A study of Mus musculus with 12 samples.

Results

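The genes described here are 10 nuclear genes that shape mitochondria or control how many are made, read in dopaminergic neurons of the mouse midbrain. They were chosen by symbol, and all 10 were found among the 23079 genes of the deposited count table. They comprise the fusion GTPases Mfn1, Mfn2 and Opa1, the fission genes Dnm1l, Fis1 and Mff, and the biogenesis regulators Ppargc1a, Ppargc1b, Nrf1 and Tfam. Nrf1 is nuclear respiratory factor 1 (Entrez 18181), not Nfe2l1, for which the same short name is in use. The samples are RNA of dopaminergic neurons from C57BL/6 mice, taken either from the substantia nigra pars compacta (SNpc) or from the ventral tegmental area (VTA). The labels call them TRAP samples, read here as translating ribosome affinity purification, a method that pulls down tagged ribosomes of a chosen cell type with the mRNA on them. No source used here gives the transgene, the promoter that drives it, the age of the mice or whether mice were pooled. The study had 6 columns per region.

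Columns 4 and 5 of SNpc held identical counts, as did columns 2 and 3 of VTA, and each such pair differed by less than the sampling noise and was counted as 1 sample, SNpc library 4 and VTA library 2. This left 5 libraries per region, with total counts of 62951005 to 65959443 in SNpc and 62356964 to 81393907 in VTA. Whether libraries of 1 region stem from different mice is not stated, so the p-values rest on a spread between libraries that may be technical. The region labels were checked on known markers. Sox6, a transcription factor of SNpc neurons, stood at 98.2 ± 12.9 CPM (counts scaled to the depth of the library) in SNpc libraries against 51.1 ± 4.56 in VTA libraries. The VTA factor Otx2 stood at 4.66 ± 0.387 CPM in SNpc libraries against 17.5 ± 3.45 in VTA libraries (n = 5 each, SD). Among 9 dopaminergic markers 8 were called higher in SNpc, 0 were called higher in VTA, and the median log2 fold change was 0.59. Known SNpc markers were called higher in SNpc in 4 of 4 cases, and known VTA markers higher in VTA in 4 of 5. The summed level of the dopaminergic markers was 9630 to 14000 CPM in SNpc libraries and 4910 to 8050 in VTA libraries. In such bulk samples, fewer cells of a type and less RNA per cell cannot be told apart. SNpc library 4 stood apart from the other SNpc libraries in its glial RNA, with a mean log2 CPM over astrocyte, oligodendrocyte, microglial and endothelial markers of 2.72. The other SNpc libraries had 0.62 to 1.08 and the VTA libraries 1.67 to 3.20.

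Mitochondria fuse and divide all the time. Mitofusins join the outer membranes of neighbouring mitochondria and Opa1 joins the inner ones and keeps the cristae in shape. Dnm1l, also known as Drp1, is a cytosolic GTPase that receptors such as Mff draw to the outer membrane, where it constricts the organelle. New mitochondrial mass is set by the PGC-1 coactivators, which work with DNA-binding factors such as Nrf1. Together they switch on nuclear genes for the respiratory chain and Tfam. The Tfam protein packages mitochondrial DNA and is a factor in its transcription. Dopaminergic neurons have very long, branched axons, and loss of several of these genes in mice harms them.

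The 3 fission genes Dnm1l, Fis1 and Mff and the fusion gene Mfn2 were higher in SNpc, by 1.29-fold to 1.49-fold. The call of Fis1 ended once the trend over transcript length and GC content was removed, and that of Mfn2 with glial markers as a covariate. Ppargc1a and Ppargc1b were lower in SNpc, so that VTA libraries held 1.86-fold and 2.46-fold as much of their RNA. In all, 4 of 10 genes were called higher in SNpc and 2 in VTA by an edgeR quasi-likelihood test across 15685 genes with a Benjamini-Hochberg adjusted p under 0.05. Of all genes tested, 17.8% were called higher in SNpc and 20.4% higher in VTA, 38.2% in either direction. The libraries of the regions did not overlap for 5 of the 10, against 26.6% of all genes tested. The median log2 fold change, given throughout as SNpc minus VTA, was 0.13 over the 10 genes and -0.04 over all genes. Without SNpc library 4 the counts were 5 in SNpc and 3 in VTA. The genes called higher in SNpc over the whole table then numbered 3317, against 2793 with it. They made up 51% of all calls, against 46.6% with it. Over the fits that left out 1 library, 2790 to 3193 genes were called higher in VTA, against 3203 with all libraries.

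**Figure D1:**
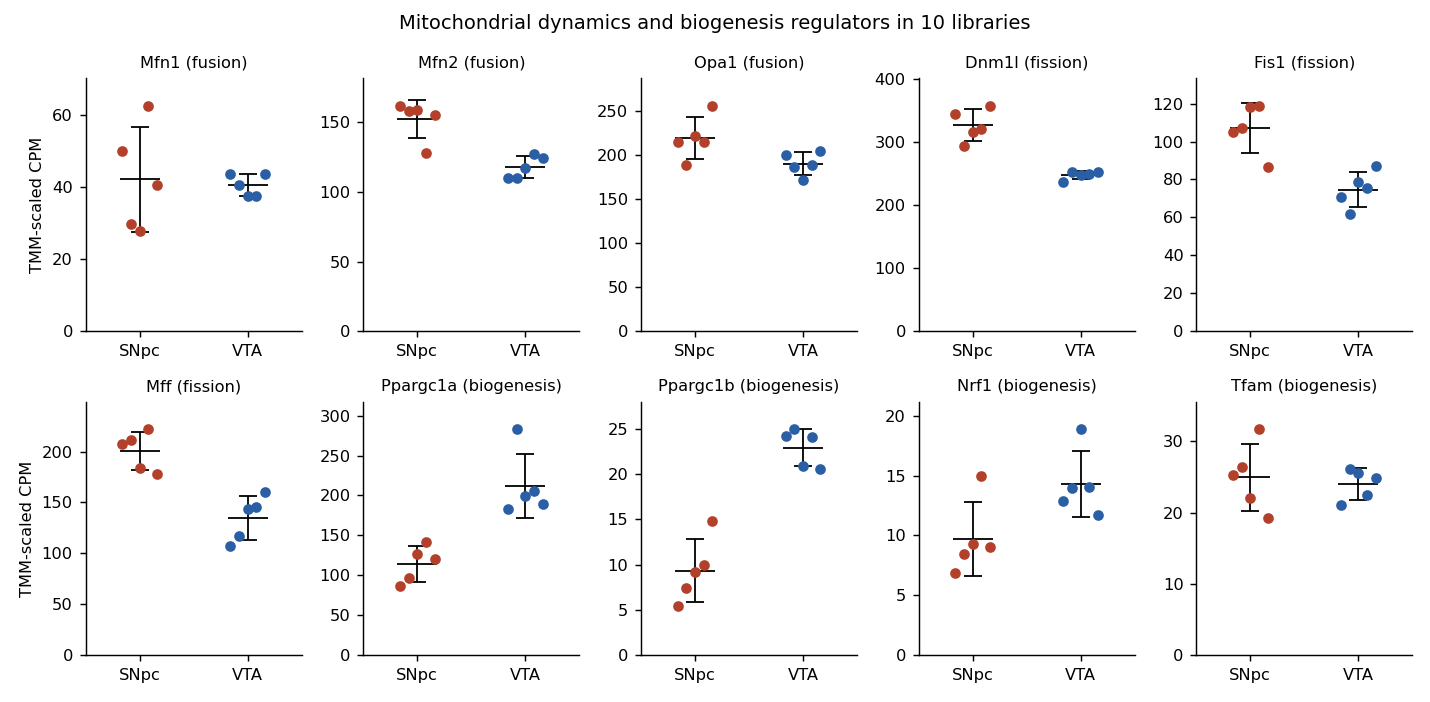
TMM-scaled CPM (y axis, from 0, a scale of its own in each panel) of the 10 genes in 5 SNpc libraries (left, red) and 5 VTA libraries (right, blue), where each point is 1 library, the horizontal line is the mean and the bars are the SD. The SNpc points lie above the VTA points for Mfn2, Dnm1l and Mff and below them for Ppargc1a and Ppargc1b, and the groups overlap for the other genes.

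Dnm1l, the GTPase that cuts mitochondria (Entrez 74006, mm10 chromosome 16, 16312230 to 16358959, minus strand), had the tightest values of the set. It stood at 345, 294, 316, 320 and 358 CPM in SNpc libraries 1, 2, 3, 4 and 6, against 237, 252, 247, 250 and 253 CPM in VTA libraries 1, 2, 4, 5 and 6. Every SNpc library was above every VTA library. This was a 1.32-fold higher level in SNpc (log2 fold change 0.40, standard error 0.08, edgeR adjusted p = 0.00103). Of its merged exons, 4.67% lie under an antisense transcript, and a processed pseudogene is 91.2% identical over 1347 bases, so its count is uncertain to that extent.

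Mff, the outer membrane receptor for Dnm1l (Entrez 75734, chromosome 1, 82724890 to 82752394, plus strand), had the largest log2 fold change of the 10 towards SNpc before any correction. Its levels were 207, 211, 184, 222 and 178 CPM in SNpc libraries 1, 2, 3, 4 and 6, against 107, 117, 144, 145 and 160 CPM in VTA libraries 1, 2, 4, 5 and 6. The groups did not overlap, with VTA library 6 the nearest to the SNpc range. SNpc exceeded VTA by 1.49-fold (log2 fold change 0.58, standard error 0.11, edgeR adjusted p = 0.00082). It was 0.32 with the length and GC trend removed (edgeR adjusted p = 0.0214), below Mfn2 (0.55), Opa1 (0.44) and Dnm1l (0.38) in that fit. An opposite-strand transcript covers 2% of its merged exons, and strand was not marked by the library kit.

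Fis1, a small outer membrane protein first known in yeast for recruiting the division machinery (Entrez 66437, chromosome 5, 136953275 to 136966234, plus strand), was also called higher in SNpc. It had 105, 107, 118, 119 and 86.7 CPM in SNpc libraries 1, 2, 3, 4 and 6, against 70.8, 61.7, 78.6, 75.3 and 86.9 CPM in VTA libraries 1, 2, 4, 5 and 6. SNpc library 6 and VTA library 6 met, so the groups overlapped by that pair. The difference was 1.43-fold (log2 fold change 0.52, standard error 0.11, edgeR adjusted p = 0.00187). Fis1 has the shortest transcript of the set, 948 bases, and genes in the shortest quintile had a median log2 fold change of 0.34. Once the trend of counts over transcript length and GC content was removed from each library, its log2 fold change was 0.12, with a 95% interval of -0.07 to 0.30, and the call ended (edgeR adjusted p = 0.355).

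Among the fusion genes, Mfn2, a mitofusin that also tethers mitochondria to the endoplasmic reticulum (Entrez 170731, chromosome 4, 147873599 to 147904704, minus strand), was higher in SNpc. It stood at 162, 158, 159, 128 and 155 CPM in SNpc libraries 1, 2, 3, 4 and 6, against 110, 110, 117, 127 and 124 CPM in VTA libraries 1, 2, 4, 5 and 6. SNpc library 4 lay apart from its group and just above the highest VTA library. Its log2 fold change was 0.37 (standard error 0.09, edgeR adjusted p = 0.00502). It was 0.49 without SNpc library 4 and 0.24 with glial markers as a covariate, where the call ended (edgeR adjusted p = 0.0921).

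Mfn1, the other mitofusin (Entrez 67414, chromosome 3, 32529465 to 32579239, plus strand), differed more between SNpc libraries than between the regions. Its levels were 50, 29.8, 27.9, 62.7 and 40.5 CPM in SNpc libraries 1, 2, 3, 4 and 6, against 43.7, 40.6, 37.6, 37.7 and 43.7 CPM in VTA libraries 1, 2, 4, 5 and 6. The SNpc values enclosed all VTA values, with a coefficient of variation of 34.3% in SNpc and 7.36% in VTA. Its log2 fold change, 0.05, had a 95% interval of -0.34 to 0.44 (edgeR adjusted p = 0.847), and its sign turned without SNpc library 1 (-0.01) or SNpc library 4 (-0.08).

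Opa1, the inner membrane fusion GTPase (Entrez 74143, chromosome 16, 29579334 to 29654884, plus strand), had 215, 189, 221, 215 and 256 CPM in SNpc libraries 1, 2, 3, 4 and 6. VTA libraries 1, 2, 4, 5 and 6 had 200, 186, 171, 188 and 204 CPM. SNpc library 2 lay among the VTA libraries, while the other SNpc libraries were above all of them. At a log2 fold change of 0.21 and an unadjusted 95% interval of 0.01 to 0.41, Opa1 missed the threshold (edgeR adjusted p = 0.0911). It passed without SNpc library 2 (0.26, edgeR adjusted p = 0.046) and without SNpc library 4 (0.28, edgeR adjusted p = 0.0314). With the length and GC trend removed it was 0.44 (edgeR adjusted p = 0.000487), and its 6230-base transcript lies in the longest quintile of genes, whose median log2 fold change was -0.48.

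Ppargc1a, the coactivator PGC-1alpha (Entrez 19017, chromosome 5, 51454250 to 51567726, minus strand), was lower in SNpc. It stood at 86.3, 96.5, 127, 141 and 120 CPM in SNpc libraries 1, 2, 3, 4 and 6, against 183, 283, 199, 205 and 189 CPM in VTA libraries 1, 2, 4, 5 and 6. No SNpc library reached the lowest VTA library, and VTA library 2 lay far above the others of its region. SNpc was lower by a log2 fold change of -0.89 (standard error 0.14, edgeR adjusted p = 0.000128), and by -0.77 without VTA library 2. Its transcript, 6464 bases long, is in the longest quintile, and after removal of the length and GC trend the log2 fold change was -0.66 (edgeR adjusted p = 0.000696).

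Ppargc1b, the related coactivator PGC-1beta (Entrez 170826, chromosome 18, 61298136 to 61400431, minus strand), was scarcer and had the largest change of the 10. Its levels were 5.47, 7.40, 9.16, 9.91 and 14.8 CPM in SNpc libraries 1, 2, 3, 4 and 6, against 24.2, 25, 20.9, 24.1 and 20.6 CPM in VTA libraries 1, 2, 4, 5 and 6. The groups stayed well apart, and the spread was wider in SNpc, with a coefficient of variation of 37.3% against 8.89% in VTA. The difference on the log2 scale was -1.30 (standard error 0.22, edgeR adjusted p = 0.000219). It remained at -1.16 with the length and GC trend removed and -1.28 with glial markers as a covariate, both called. Genes of its length quintile had a median log2 fold change of -0.04.

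Nrf1, a transcription factor that PGC-1 proteins coactivate (chromosome 6, 30047988 to 30153458, plus strand), had a negative log2 fold change as well and did not pass. It had 6.82, 8.44, 9.30, 15 and 9.06 CPM in SNpc libraries 1, 2, 3, 4 and 6, against 12.9, 14, 18.9, 14.1 and 11.7 CPM in VTA libraries 1, 2, 4, 5 and 6. SNpc library 4 lay within the VTA range and the other 4 SNpc libraries below it. Its log2 fold change was -0.56 (standard error 0.22, edgeR adjusted p = 0.0549). Without SNpc library 4 it was -0.71 and called (edgeR adjusted p = 0.0104), and with glial markers as a covariate it was -0.34 (edgeR adjusted p = 0.312).

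Tfam, the mitochondrial transcription and packaging factor (Entrez 21780, chromosome 10, 71225464 to 71238280, minus strand), showed no difference that passed the test. It had 25.3, 26.4, 22.1, 31.7 and 19.2 CPM in SNpc libraries 1, 2, 3, 4 and 6, against 21.0, 26.1, 25.6, 22.4 and 24.9 CPM in VTA libraries 1, 2, 4, 5 and 6. The SNpc values lay on both sides of the VTA values. A log2 fold change of 0.05 had a 95% interval of -0.26 to 0.37 (edgeR adjusted p = 0.801), which spans a level in SNpc from 0.835-fold to 1.29-fold that in VTA.

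**Figure D2:**
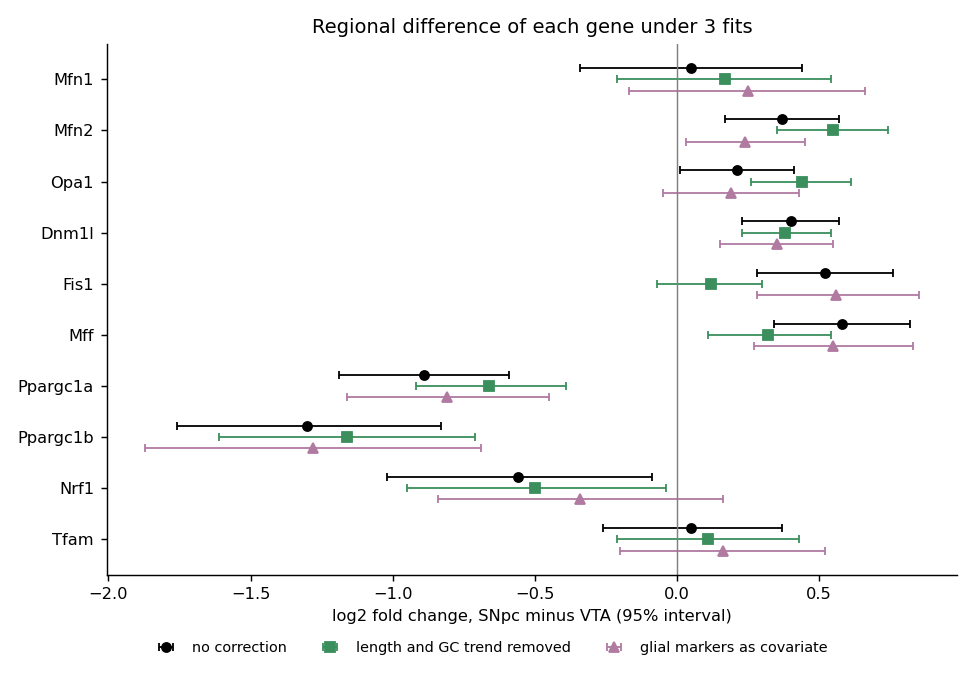
Log2 fold change (x axis, SNpc minus VTA) of the 10 genes with 95% intervals that are not adjusted for the number of genes, without correction (black circles), with the length and GC trend removed (green squares) and with glial markers as a covariate (purple triangles). Ppargc1a and Ppargc1b stay left of 0 in all 3 fits, while Fis1 moves from 0.52 to 0.12 and Opa1 from 0.21 to 0.44 when the length and GC trend is removed.

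Transcript length and glial RNA moved with the region. The shortest quintile of genes had a median log2 fold change of 0.34, with 33.2% called higher in SNpc and 4.83% in VTA. The longest quintile had a median of -0.48, with 7.33% called higher in SNpc and 48.4% in VTA. Against this trend Dnm1l, Mfn2, Tfam and Mfn1, all in the quintile of 3694 to 5180 bases, stood above its median of -0.16, and Opa1 stood above the median of the longest quintile. With the length and GC trend removed, 4 genes were called higher in SNpc (Mfn2, Opa1, Dnm1l and Mff) and 2 in VTA (Ppargc1a and Ppargc1b), where 15.1% and 16.5% of all genes were called. With the library scale refitted after the removal, the same genes were called, against 15% and 17% of all genes. With glial markers as a covariate, Dnm1l, Fis1 and Mff were called higher in SNpc and the PGC-1 genes in VTA, where 10.7% and 15.5% of all genes were called.

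**Figure D3:**
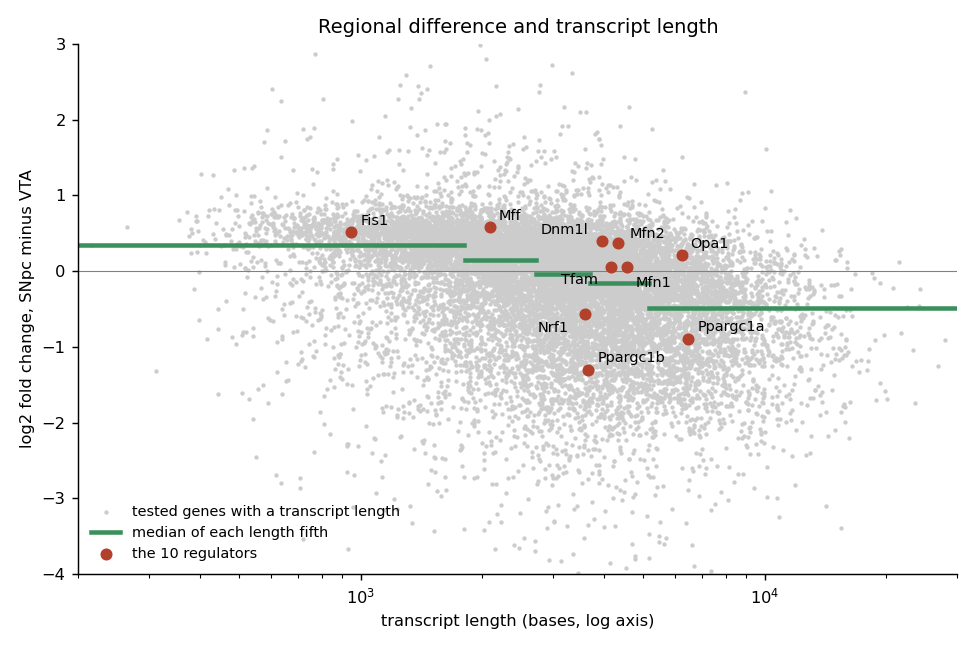
Log2 fold change (y axis, SNpc minus VTA) against transcript length (x axis, log scale) for tested genes with an annotated length (grey), with the median of each length quintile (green lines) and the 10 regulators (red); genes beyond the axes are not drawn. The medians descend from 0.34 in the shortest quintile to -0.48 in the longest, Ppargc1b lies well below the median of its quintile and Opa1 well above its own.

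Markers of other cells gave the following. Of 10 astrocyte markers, 3 were called higher in VTA and 0 in SNpc, with summed levels of 266 to 466 CPM in SNpc libraries and 457 to 609 in VTA libraries. Of 10 oligodendrocyte markers 0 were called in either direction, with summed levels of 285 to 1480 CPM in SNpc and 725 to 897 in VTA. Of 10 microglial markers, 2 were called higher in VTA, with sums of 15.7 to 42.2 CPM in SNpc and 38.7 to 55.0 in VTA, and of 8 endothelial markers tested 2 were, with sums over the 10 listed of 2.25 to 16.6 CPM in SNpc and 4.55 to 107 in VTA. Of 5 oligodendrocyte precursor markers 3 were called higher in VTA, at sums of 15.3 to 46.9 CPM in SNpc and 39.9 to 63.1 in VTA. The 3 glutamatergic transporter genes summed to 18.6 to 87.7 CPM in SNpc and 93.1 to 131 in VTA, with 2 called higher in VTA, and the 3 GABAergic markers to 84.8 to 314 in SNpc and 165 to 279 in VTA, with 0 called. Serotonergic and cholinergic markers summed to 1.46 to 7.76 and 2.86 to 5.43 CPM in SNpc, and to 2.11 to 30.9 and 1.52 to 8.24 CPM in VTA, with 0 of 3 serotonergic genes called and 1 of 2 tested cholinergic genes called higher in SNpc. No marker was at 0 in every library. Beyond the fit with the glial covariate, the part of these cells in the values of the 10 genes was not tested.

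Levels of different genes were compared per kilobase of transcript, as mean RPKM with 1 annotated transcript per gene. In SNpc the fission genes led with Fis1 at 113 ± 13.7, Mff at 96.1 ± 8.96 and Dnm1l at 82.3 ± 6.36 RPKM (SD, n = 5). The library ranges of Fis1 and Mff overlapped, as did those of Mff and Dnm1l. Opa1 (35.2 ± 3.87) and Mfn2 (35.1 ± 3.23) followed and did not differ beyond their spread, ahead of Ppargc1a (17.6 ± 3.45), Mfn1 (9.24 ± 3.17) and Tfam (5.99 ± 1.13). Mfn1 overlapped both Ppargc1a and Tfam. Nrf1 (2.72 ± 0.870) and Ppargc1b (2.56 ± 0.953) were lowest and overlapped. In VTA the order began alike with Fis1 (78.7 ± 9.83), Mff (64.5 ± 10.5) and Dnm1l (62.5 ± 1.57 RPKM), where the libraries of Mff overlapped those of both others. Ppargc1a at 32.8 ± 6.26 RPKM in VTA overlapped Opa1 (30.5 ± 2.08) and Mfn2 (27.1 ± 1.82). Mfn1 (8.91 ± 0.656), Ppargc1b (6.29 ± 0.559), Tfam (5.76 ± 0.531) and Nrf1 (4.0 ± 0.764) closed the list, and Tfam overlapped both Ppargc1b and Nrf1. Mff has 16 annotated transcripts that together cover 9757 bases, so its RPKM depends on the 2087-base transcript taken here.

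Ratios between paired genes within a library do not depend on library scale, but they were not corrected for the length and GC trend. With that trend removed, log2 fold changes were 0.55 for Mfn2 and 0.17 for Mfn1, and -0.66 for Ppargc1a and -1.16 for Ppargc1b. Dnm1l (3966 bases) then had 0.38 and Opa1 (6230 bases) 0.44, against 0.40 and 0.21 without the removal. The ratios themselves were not tested with the trend removed. Mfn2 over Mfn1 had a mean log2 ratio of counts of 1.91 ± 0.60 in SNpc and 1.53 ± 0.16 in VTA, a difference of 0.38 (two-sided exact permutation p = 0.222, adjusted over 3 ratios 0.222). Ppargc1a over Ppargc1b had 3.66 ± 0.37 in SNpc and 3.19 ± 0.21 in VTA, a difference of 0.47 (exact permutation p = 0.0476, adjusted 0.0714). Dnm1l over Opa1 had 0.58 ± 0.08 in SNpc and 0.39 ± 0.11 in VTA, a difference of 0.19 (exact permutation p = 0.0238, adjusted 0.0714). None of the 3 passed after adjustment, and the smallest p that 5 libraries against 5 allow is 0.00794. Each passed without 1 library, Mfn2 over Mfn1 without SNpc library 4 (0.60, exact permutation adjusted p = 0.0476), Ppargc1a over Ppargc1b without SNpc library 6 (0.63, exact permutation adjusted p = 0.0357), and Dnm1l over Opa1 without SNpc library 6 (0.22, exact permutation adjusted p = 0.0357) or VTA library 4 (0.23, exact permutation adjusted p = 0.0238).

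Promoters of 9 of the 10 genes were searched for motifs of factors that act in this pathway. The 4 with a match are shown since Nrf1 is itself one of the genes and GABP is a partner in the control of respiratory genes. Windows of 250 bases upstream of a RefSeq start site (GRCm38.p6, the assembly called mm10 elsewhere) were searched, 15 in all. Some genes had more than 1 window, and windows of Mff and of Mfn2 overlapped, so the 15 are not separate promoters. Ppargc1b was left out of the search. The motifs, read on both strands, were the NRF1 element (GCGCA and GCGC with any 1 base between), the ETS core CCGGAAG bound by GABP, the ERR response element TCAAGGTCA and the cAMP response element TGACGTCA. The NRF1 element was found in 1 of the 15 windows, against 3.74% of all 32851 windows, and the ETS core in 3 of the 15, against 6.91% of all windows. The other motifs, held by 0.39% and 1.55% of all windows, were in none of the 15. The 150 bases before a RefSeq start site of each gene follow, where that start can differ from the gene's outer annotated end, 5′ to 3′ on the gene's strand, with the match in capitals. The Opa1 window is chr16:29579184-29579333 (plus strand, NRF1 element starting 59 bases before the start site) and the Tfam window is chr10:71238045-71238194 (minus strand, ETS core at 47). The Mfn1 window is chr3:32529332-32529481 (plus strand, ETS core at 44) and the Fis1 window is chr5:136953125-136953274 (plus strand, ETS core at 18).
Opa1: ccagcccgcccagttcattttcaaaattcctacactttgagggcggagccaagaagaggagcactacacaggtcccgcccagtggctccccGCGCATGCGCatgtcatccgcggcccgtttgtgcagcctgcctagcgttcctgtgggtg
Tfam: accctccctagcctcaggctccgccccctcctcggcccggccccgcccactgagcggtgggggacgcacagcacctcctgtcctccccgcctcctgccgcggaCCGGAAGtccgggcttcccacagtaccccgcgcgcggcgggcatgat
Mfn1: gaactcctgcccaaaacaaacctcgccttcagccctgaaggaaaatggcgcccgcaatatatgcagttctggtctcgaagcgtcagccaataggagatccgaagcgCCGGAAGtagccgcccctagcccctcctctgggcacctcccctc
Fis1: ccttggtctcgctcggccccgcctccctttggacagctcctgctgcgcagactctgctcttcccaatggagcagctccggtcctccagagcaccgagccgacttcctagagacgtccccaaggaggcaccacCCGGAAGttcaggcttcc
The Opa1 element reads the same on both strands and is counted once. Of these 4 genes, Fis1 was called higher in SNpc and the others did not pass the test, and a match in a window is a description of its letters only.

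The other genes of the pathway were read from lists written from general knowledge, and each count stands against 17.8% of all genes called higher in SNpc and 20.4% called higher in VTA. Of 19 genes of fusion and inner membrane remodelling, 12 were higher in SNpc, 0 were higher in VTA, 7 did not pass and the median log2 fold change was 0.34. Chchd3, a cristae organising gene, stood at 42.0 ± 4.68 CPM in SNpc libraries against 28.5 ± 2.47 in VTA libraries (log2 fold change 0.56, edgeR adjusted p = 0.00175). The cristae organising genes Apoo (0.62) and Immt (0.31), the inner membrane scaffold prohibitin Phb2 (0.49) and Miga1, an outer membrane protein that promotes fusion and is listed as Fam73a (0.31), were higher in SNpc as well. Apoo has a processed pseudogene of identical sequence over 586 bases, so its count is uncertain. Immt has a pseudogene 94.9% identical over 315 bases, and Phb2 shares 155 exonic bases with a small nucleolar RNA on its own strand. The list's median transcript length was 1915 bases. After removal of the length and GC trend 5 were called higher in SNpc, Miga1 among those named, against 15.1% of all genes. With glial markers as a covariate 5 were called, against 10.7% of all genes, and the calls of Miga1 (0.23) and Immt (0.20) ended.

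Fission adaptors and modifiers gave 8 genes higher in SNpc, 2 in VTA and 10 that did not pass among 20 tested, with a median of 0.24, where 17.8% and 20.4% of all genes were called. Gdap1, an outer membrane protein that promotes division (281 ± 43.8 CPM in SNpc and 179 ± 23.9 in VTA), had a log2 fold change of 0.65 (edgeR adjusted p = 0.000426). Fundc1, a mitophagy receptor that binds Dnm1l (0.62), Ppp3cb, a catalytic subunit of calcineurin, the phosphatase that activates Dnm1l (0.48), and Prkaca, the catalytic subunit of protein kinase A, which restrains it (0.38), were also higher in SNpc. Spire1, which nucleates actin where mitochondria divide, was higher in VTA, at 101 ± 7.45 CPM in SNpc libraries against 142 ± 9.21 in VTA libraries (log2 fold change -0.50, edgeR adjusted p = 0.000411). The other gene higher in VTA was the actin regulator Inf2, named here after its values were seen, at 3.29 CPM in SNpc and 7.18 in VTA (edgeR adjusted p = 0.0448). Leaving out SNpc library 1, 2, 3 or 6, or VTA library 1, 2, 5 or 6, ended its call. Prkaca has a processed pseudogene 90.2% identical over 918 bases. After removal of the length and GC trend the counts were 8 in SNpc and 1 in VTA, against 15.1% and 16.5% of all genes, and Fundc1 had 0.29 and Spire1 -0.27. With glial markers as a covariate the counts were 7 and 1, against 10.7% and 15.5% of all genes.

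Genes that carry mitochondria along axons were divided. Of 9, 2 were higher in SNpc, 4 in VTA and 3 did not pass, with a median of 0.00, and the count in SNpc is near the 17.8% of all genes. The kinesin heavy chain Kif5c stood at 625 ± 45.2 CPM in SNpc libraries against 424 ± 31.7 in VTA libraries (log2 fold change 0.56, edgeR adjusted p = 7.74e-05), and Armcx3, an outer membrane protein that takes part in mitochondrial traffic, changed by 0.68. Armcx3 has a pseudogene 99.8% identical over 1140 bases and is uncertain. Snph, syntaphilin, which anchors mitochondria to axonal microtubules, was higher in VTA, at 95.7 ± 5.24 CPM in SNpc libraries against 133 ± 9.02 in VTA libraries (log2 fold change -0.47, edgeR adjusted p = 0.000563). The adaptor Trak1 (-0.38) and the kinesin Kif5a (-0.33) were also called higher in VTA. After removal of the length and GC trend 2 were called in SNpc and 0 in VTA, against 15.1% and 16.5% of all genes, and Kif5a turned to 0.03. With glial markers as a covariate 2 were called in SNpc and 2 in VTA, against 10.7% and 15.5% of all genes.

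Regulators of biogenesis other than the 4 already described were mostly higher in VTA where they passed. Of 29, 14 were higher in VTA, 1 in SNpc and 14 did not pass, with a median of -0.56, against 20.4% of all genes called higher in VTA and 17.8% in SNpc. Gabpb2, a subunit of the ETS factor GABP, stood at 21.9 ± 4.43 CPM in SNpc libraries against 67.9 ± 4.29 in VTA libraries (log2 fold change -1.63, edgeR adjusted p = 3.42e-07). The thyroid hormone receptor Thrb (-1.75), the forkhead factor Foxo3 (-1.18), the fatty acid receptor Ppard (-1.41) and Ncor1, a corepressor that opposes nuclear receptors (-1.13), were higher in VTA too. Gabpb2 shares 328 exonic bases with an antisense transcript, and Ncor1 has a pseudogene 94.8% identical over 556 bases. Thra, the other thyroid hormone receptor, which shares exonic bases with Nr1d1 on the opposite strand, had 400 ± 33.0 CPM in SNpc libraries and 439 ± 23.2 CPM in VTA libraries with no call (edgeR adjusted p = 0.217). The gene higher in SNpc was Sirt3, a mitochondrial deacetylase named after its values were seen (0.39, edgeR adjusted p = 0.0452). It overlaps Psmd13 and Ric8a on the opposite strand, and its call ended without SNpc library 2, 3 or 4 or VTA library 1, 2, 4 or 6. The call of Sirt3 also ended with the length and GC trend removed (0.12, edgeR adjusted p = 0.535). The list's median transcript length was 4987 bases, and with the length and GC trend removed 9 were called in VTA and 4 in SNpc, with a median of -0.20. Of all genes 16.5% were then called in VTA and 15.1% in SNpc, to which the count of 4 is close. With glial markers as a covariate 12 were called in VTA and 1 in SNpc, against 15.5% and 10.7% of all genes.

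Of 26 genes that copy, transcribe or maintain mitochondrial DNA or its products, 5 were higher in SNpc, 0 in VTA and 21 did not pass, with a median of 0.31, and the count in SNpc is near the 17.8% of all genes. Ssbp1, the single-strand binding protein of mitochondrial DNA, stood at 39.9 ± 4.88 CPM in SNpc libraries against 26.0 ± 3.52 in VTA libraries (log2 fold change 0.62, edgeR adjusted p = 0.00177). Rrm2b, a ribonucleotide reductase subunit that supplies nucleotides (0.43), the matrix protease Clpp (0.50), and Mpv17, an inner membrane protein needed to keep the genome (0.46), were the others called among those named. Slirp, which stabilises mitochondrial mRNA, was the fifth (0.60), named after its values were seen, and it shares 2914 exonic bases with Snw1 on the opposite strand. Ssbp1 and Rrm2b have processed pseudogenes 97.8% and 96.1% identical over 447 and 1051 bases, so their counts are uncertain. Mpv17 shares 463 exonic bases with another protein-coding gene on its own strand. Lrpprc, a partner of Slirp, had 75.2 ± 13.2 CPM in SNpc libraries and 64.3 ± 8.23 CPM in VTA libraries and did not pass (edgeR adjusted p = 0.186). Without SNpc library 4 the count was 8, while the genes called higher in SNpc over the whole table rose from 2793 to 3317. The trend removed, 4 were called in SNpc, near the 15.1% of all genes, and the calls of Clpp and Mpv17 ended. With glial markers as a covariate 3 were called in SNpc and 0 in VTA, the former near the 10.7% of all genes.

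**Figure D4:**
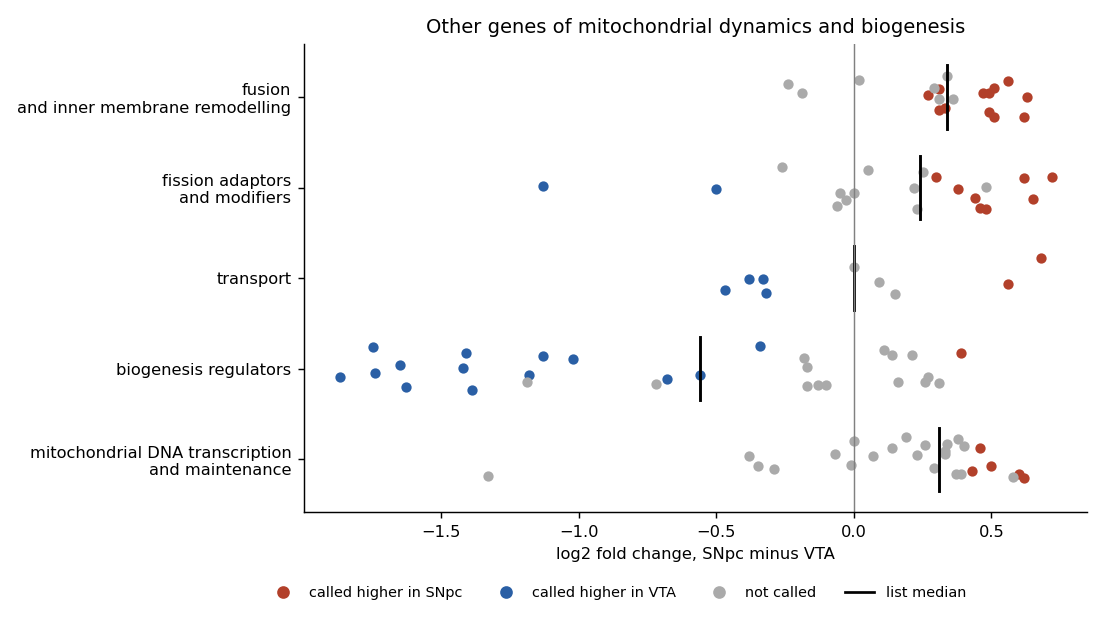
Log2 fold change (x axis, SNpc minus VTA) of the tested genes of 5 pathway lists (rows, with the 10 regulators left out), 1 point a gene, coloured by its call, with the list median as a black line and points spread vertically only for legibility. Blue points reach to the left of -1 mainly among biogenesis regulators, whose median is -0.56, and the medians of the fusion, fission and mitochondrial DNA lists are 0.34, 0.24 and 0.31.

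Subunits of complex I of the respiratory chain and their relatives by name were read beside the PGC-1 genes. Complex I genes are classic targets of the PGC-1 and Nrf1 axis. A list chosen after results were seen held 36 genes named Nduf, then a, b, c, s or v, then a number. Names with other letters after Nduf, such as those of the Ndufaf assembly factors, were left out. Of the 36, 35 passed the test towards SNpc and 0 towards VTA. Their median log2 fold change was 0.59 and their median transcript length was 944 bases. Of all genes 17.8% were called higher in SNpc, and 33.2% of the shortest length quintile, in which that median length falls. Once the length and GC trend was removed 9 were called higher in SNpc, with a median of 0.18, against 15.1% of all genes. With glial markers as a covariate 29 were called higher in SNpc, against 10.7% of all genes. These values and those of the 10 regulators come from the same libraries.

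The genes whose profiles were most like those of the regulators were sought among 10163 tested genes (mean log2 CPM 3 or more) by Pearson's r of log2 CPM over the 10 libraries. All libraries of a region share its regional difference, so r is given as a description. Ppargc1a was closest to the transcription factor gene Klf12 (r = 0.985), to the spectrin listed as Spnb2 (0.983) and to Tmem131 (0.981), and Ppargc1b to Ypel2 (0.990), Eya3 (0.988) and Zfp174 (0.986). Dnm1l was closest to Map3k15 (0.993), Mff to Chchd2 (0.984), Psmb1 (0.978) and Atp5e (0.978), and Fis1 to Rbx1 (0.982). Mfn2 was closest to Lmo4 (0.987) and Opa1 to Tbck (0.934). Mfn1 was closest to Smyd5 (0.877), Nrf1 to the histone methyltransferase gene Ehmt1 (0.950) and Tfam to Ypel1 (0.948).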

How the data were processed

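The authors deposited raw read counts for each gene in 12 columns, 6 for each region, with no normalisation. The submitters' processing notes name TopHat2 2.0.8 and mm10. Counting program, annotation and strand setting: not given in the sources used here. Counts were fitted with edgeR 4.0.16 in R 4.3.3 over 10 libraries (filterByExpr, TMM scaling, robust quasi-likelihood F test, no covariate, Benjamini-Hochberg adjustment over all genes tested). CPM values are TMM-scaled, and log2 CPM had a prior of 2. Standard errors are the log2 fold change divided by the root of the F statistic, and 95% intervals use the fitted degrees of freedom. Transcript lengths and GC content came from GENCODE M21, preferring protein-coding, then basic, then long transcripts, for 20945 of 23079 identifiers. Their trend was removed with a generalised additive model (mgcv 1.9.3) per library, as an offset with the scale kept or refitted. DESeq2 1.42.0, other scalings, no filter, 12 columns, a replicate block, a glial covariate and leaving out each library were alternatives. Ratios were compared by exact permutation. The fits were tested on simulated data. The 10 genes, the lists and the tests were chosen with earlier results of these data known. Of each list the text names those 4 genes whose p was lowest and the 2 with the highest mean CPM, except where stated; 1 of them is not reported here. Near-copies of named genes were sought with BLAST at 90% identity over 200 bases or more. The replicate numbers were not taken as pairs.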

Additional observations from a re-analysis of the deposited data

Results flagged for a closer look

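In groups of 5 libraries, a library was marked when its gap to the nearest of the others was above the 95% critical value of Dixon's test for the group's range. Chance marks about 1 in 20 groups. Of 80 groups checked, 5 were marked. Mfn2 in SNpc library 4 stood at 128 CPM, below the other SNpc libraries at 155 to 162. Ppargc1a in VTA library 2 stood at 283 CPM, above the other VTA libraries at 183 to 205. Fundc1 in the same VTA library 2 stood at 45.5 CPM, below the others at 59.4 to 63.1. Spire1 in VTA library 6 stood at 126 CPM, below the others at 144 to 148. The log2 ratio of Ppargc1a to Ppargc1b in SNpc library 6 was 3.02, below the others at 3.70 to 3.97. No cause was tested.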

How the results depend on the processing

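Dnm1l, Mff, Ppargc1a and Ppargc1b kept their direction and their call under all 19 alternatives run, and Tfam stayed uncalled in all of them. Mfn2 lost its call with glial markers as a covariate (0.24). Fis1 lost it with the length and GC trend removed, with the scale kept (0.12) or refitted (0.11). Opa1 became called with DESeq2 (0.23) and with 12 columns (0.21), a setting that counts the identical columns as separate libraries. Opa1 was also called with the trend removed (0.44 with the scale kept, 0.43 refitted), and Kif5a turned to 0.03 and 0.02 there. For each gene the cause was not tested. Over the fits that left out 1 library, log2 fold changes ran from -0.08 to 0.17 for Mfn1, 0.35 to 0.49 for Mfn2, 0.15 to 0.28 for Opa1, and -0.71 to -0.43 for Nrf1. Ratio differences ran from 0.23 to 0.60 for Mfn2 over Mfn1, 0.39 to 0.63 for Ppargc1a over Ppargc1b and 0.16 to 0.23 for Dnm1l over Opa1. With 12 columns the last 2 were called (0.45 and 0.18), but calls gained in that setting rest on repeated counts. The glial covariate left 1672 genes higher in SNpc, against 2793 without it.

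The replicate numbers shared by the regions (1, 2, 4 and 6) correlated between regions by 0.032, -0.072, -0.015 and 0.044, so they were not taken as pairs, and 1 of the 4 SNpc libraries correlated best with its own number. With the replicate block, which used 8 libraries, 1789 genes were called higher in SNpc and Mfn2 had 0.38 with an edgeR adjusted p of 0.0505. It changed no other call among the 10 genes.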
